A study of Mus musculus with 8 samples.

Results

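The miR-181 family was followed in callus of osteotomized mouse femurs. Its members were taken as all murine microRNAs (miRs) on the array whose name begins with mmu-miR-181. These were 10 of 1079 murine miRs, namely the 5p arms mmu-miR-181a-5p, mmu-miR-181b-5p, mmu-miR-181c-5p and mmu-miR-181d-5p (the species prefix is left out below) and 6 partner arms, miR-181a-1-3p, miR-181a-2-3p, miR-181b-1-3p, miR-181b-2-3p, miR-181c-3p and miR-181d-3p. Only the name chose the members, whereas the family was chosen with earlier results of these data known. The animals were male and female CD-1 mice, an outbred stock, aged 9 to 14 weeks. In all of them the femur was cut and stabilized with an intramedullary pin and a clip. The Union group (specimens P17 to P20) had a gap of 0.25 mm, which is known to heal. The Non-union group (specimens P13 to P16) had a gap of 1.8 mm with the periosteum stripped on both sides, so that gap size and periosteal loss cannot be told apart in this model. Callus was harvested on day 7 from 4 animals per group, early in healing. Total RNA of each animal was hybridized to 1 array with a single dye.

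A miR is a short RNA that guides a silencing complex to messenger RNAs, mostly through bases 2 to 8 of its 5′ end, the seed. It is cut from a hairpin, of which one arm is usually kept and the other degraded. The miR-181 family is conserved among vertebrates and is known from lymphocyte development, where miR-181a tunes the sensitivity of the T cell receptor, and from muscle, vessel wall and skeletal cells.

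The mature 5p sequences are shown first, since the comparisons below turn on how alike they are. All 10 names were matched in the RefSeq table (GRCm38.p6). Capitals mark the seed.
miR-181a-5p: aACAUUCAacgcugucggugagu
miR-181b-5p: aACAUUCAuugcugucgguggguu
miR-181c-5p: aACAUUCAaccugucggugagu
miR-181d-5p: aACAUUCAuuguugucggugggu
The seed was identical in all 4, and among 1679 mature murine names in the table no other carried it. Outside the seed the family fell into pairs. Counting from 1 at the 5′ end of the first-named miR, miR-181b-5p and miR-181d-5p differed by C12U and by 1 additional base at the 3′ end of miR-181b-5p (identity 91.7%). The miRs miR-181a-5p and miR-181c-5p had no substitution and differed by 1 base that miR-181c-5p lacks (identity 95.7%). Between the pairs, miR-181a-5p and miR-181b-5p differed by A9U, C10U and A21G and by the additional 3′ base of miR-181b-5p, and miR-181a-5p and miR-181d-5p by A9U, C10U, C12U and A21G. The sequences of the array probes were not used here, and how far one member binds the probes of another was not tested.

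The positions of the genes paired the members differently from their sequences. In GRCm38.p6, Mir181a-1 (chr1:137966455-137966541) and Mir181b-1 (chr1:137966639-137966718) lie 97 bases apart on the plus strand. Mir181a-2 (chr2:38852735-38852810) and Mir181b-2 (chr2:38853830-38853918) lie 1019 bases apart on the plus strand, within the bounds of Nr6a1, which encodes a nuclear receptor, and of Nr6a1os. Mir181d (chr8:84178716-84178787) and Mir181c, whose 5p arm lies at chr8:84178924-84178945, are 85 bases apart on the minus strand. The 5p arms of the 2 miR-181a genes are identical, as are those of the 2 miR-181b genes, so that a 5p signal does not tell from which chromosome it came. The 3p arms differ between the loci.

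Each murine miR was represented by 40 spots of 1 to 4 probes, and the scanner software gave 1 merged signal per miR and array, in arbitrary units, together with a call of detected or not detected. Between 324 and 391 murine miRs were detected per array, with 324 on P16 of the Non-union group and 391 on P17 of the Union group as the extremes. Each row of the slide held the arrays of 1 group, so that row and group cannot be told apart. Negative control spots had a net signal of 51.2 to 55.0 in the Non-union group and 46.9 to 47.9 in the Union group, and the part of this offset in the results was not tested. The 4 miRs of the 5p arms were detected on all 8 arrays, miR-181a-1-3p was detected on 3 arrays and the other 5 names on no array.

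In the merged signals, miR-181b-5p and miR-181d-5p were higher on most Non-union arrays, whereas miR-181a-5p and miR-181c-5p overlapped widely between the groups. For mmu-miR-181a-5p the signals were 64.3, 61.8, 55.9 and 50.7 on the Non-union arrays P13 to P16 and 73.6, 52.8, 63.7 and 51.2 on the Union arrays P17 to P20. The highest signal was on a Union array and the lowest on a Non-union array. For mmu-miR-181b-5p the signals were 52.8, 49.2, 61.9 and 66.4 in the Non-union group and 54.9, 35.4, 48.9 and 36.0 in the Union group. The Union arrays P18, P19 and P20 lay below every Non-union array, and P17 lay within the Non-union range. For mmu-miR-181c-5p the signals were 8.83, 7.52, 7.70 and 5.04 in the Non-union group and 8.73, 6.64, 7.14 and 7.99 in the Union group, and the lowest of all was a Non-union array, P16. For mmu-miR-181d-5p the signals were 10.4, 17.2, 17.4 and 18.4 in the Non-union group and 16.4, 7.29, 8.46 and 7.24 in the Union group. Here P17 again lay among the Non-union arrays, and P13 was the Non-union array nearest to the Union group.

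The precision of these signals differed between members. The software's error of the merged signal was 8.69% to 9.36% of the signal for miR-181a-5p and 7.98% to 9.40% for miR-181b-5p, with 36 to 40 of the 40 spots well above background. For miR-181d-5p it was 13.4% to 22.3%, with 13 to 31 such spots. For miR-181c-5p it was 18.5% to 31.2%, with 1 to 19 such spots, and the single spot belonged to P16. No spot of a member was saturated.

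**Figure D1:**
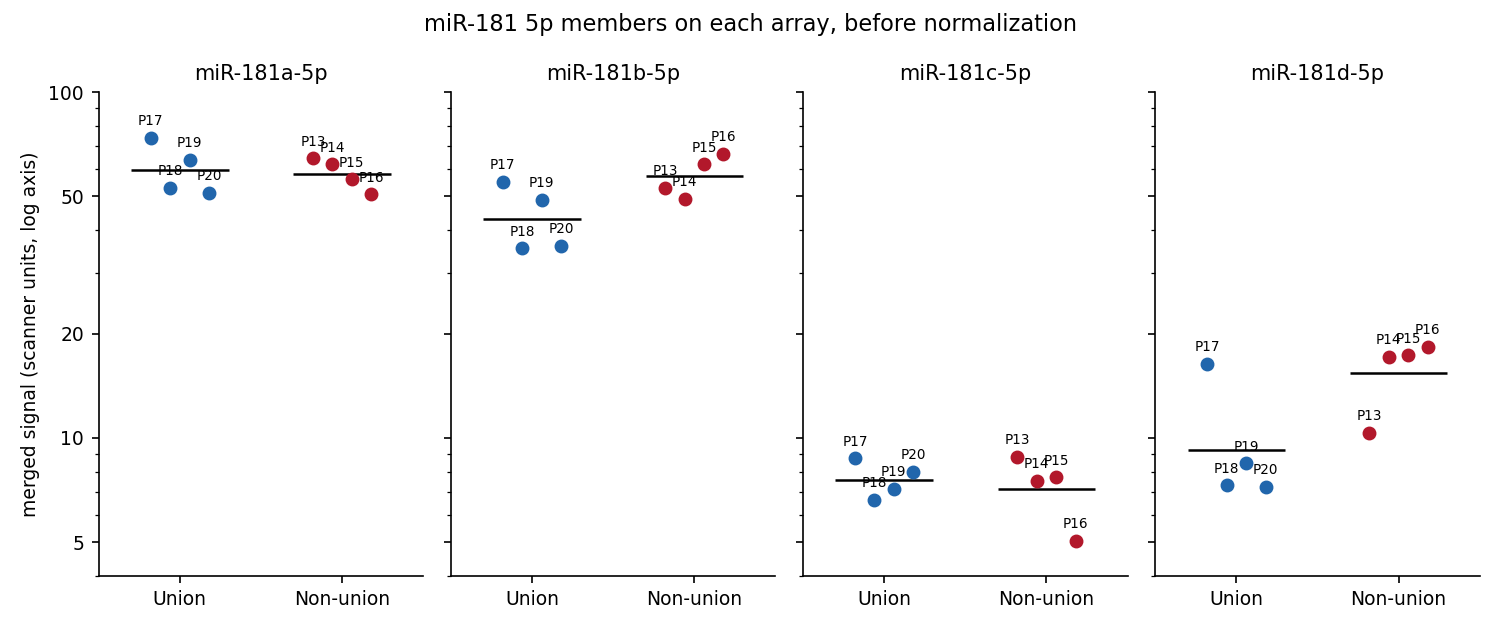
Merged signals of the 4 detected 5p arms in scanner units on a log axis, before normalization, with 1 point per animal (n = 4 per group) and the geometric mean of each group as a line. Non-union arrays lie above 3 of the 4 Union arrays for miR-181b-5p and miR-181d-5p with P17 as the exception, and the groups overlap for miR-181a-5p and miR-181c-5p.

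For the comparison, each signal was put on the log2 scale, quantile normalization was run on the complete set of 1079 murine miRs, and limma was fitted to the 310 miRs with a detection call on every array. A difference is Non-union minus Union on the log2 scale, and a fold change (FC) is 2 to its power. At an unadjusted limma p under 0.05, 2 of the 4 tested members were higher in the Non-union group and none was lower. Over all 310 tested miRs the shares were 9.68% higher and 4.19% lower. An FC of 2 or more was reached by 1 of the 4 members, against 7.1% of the tested miRs. No member passed an adjusted p of 0.05 (Benjamini-Hochberg over 310 miRs), which 0.323% of the tested miRs did, that is 1 miR. The median difference of the 4 members was 0.63, beside 0.15 over all tested miRs.

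In these values miR-181d-5p had the highest difference of the 4 members. With both probes summed, as described below, it was close to that of miR-181b-5p (0.69 and 0.66), and with normexp background correction it was below it (0.12 and 0.28). Its normalized log2 level was 4.06 ± 0.56 in the Non-union and 2.84 ± 0.73 in the Union group (SD, n = 4 each). The difference was 1.22 (SE 0.41, 95% interval 0.31 to 2.14), an FC of 2.34, with a limma p of 0.0144 and an adjusted p of 0.288. The exact two-sided permutation test over the 70 arrangements of the arrays gave p = 0.0571, where the smallest p that 4 against 4 allows is 0.0286. Without normalization the difference was 0.74, so that the size of the FC depended on the scaling. Quantile normalization moved the value of miR-181d-5p by -1.02 on P18, -0.48 on P17 and 0.47 on P16. On the other arrays the move was -0.08 to 0.09. The mean move was 0.11 in the Non-union and -0.37 in the Union group. Leaving out P16 or P18 took the FC below 2, with differences of 0.83 and 0.91, and the unadjusted limma p stayed under 0.05 without any single array.

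For miR-181b-5p the normalized log2 level was 5.96 ± 0.38 in the Non-union and 5.30 ± 0.34 in the Union group (SD, n = 4 each). The difference was 0.66 (SE 0.26, 95% interval 0.07 to 1.25), an FC of 1.58, with a limma p of 0.0317 and an adjusted p of 0.313. The exact permutation test gave p = 0.0571. The call at an unadjusted p under 0.05 was lost without normalization, where the difference was 0.41 with a limma p of 0.0894. It was lost also without P15 (difference 0.62), P16 (0.50), P17 (0.67), P18 (0.54) or P20 (0.64).

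For miR-181a-5p, the best-known member, the level was 5.96 ± 0.11 in the Non-union and 5.78 ± 0.25 in the Union group (SD, n = 4 each). The difference of 0.18 (SE 0.19, 95% interval -0.25 to 0.61) had a limma p of 0.374 and an adjusted p of 0.544. Without normalization the sign turned, at -0.04.

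For miR-181c-5p the level was 3.02 ± 0.27 in the Non-union and 2.42 ± 0.71 in the Union group (SD, n = 4 each). The difference of 0.60 (SE 0.35, 95% interval -0.18 to 1.39) had a limma p of 0.117 and an adjusted p of 0.378. It depended on the treatment of the signals. It was -0.09 without normalization and -0.12 when the quantiles were taken over the detected miRs only. It was 0.14 and 0.15 with 75th percentile scaling, 0.21 with averaged spots, 0.03 with normexp, 0.11 in the deposited log2 table and 0.23 when both probes were summed before quantile normalization. On P17 and P18, with 391 and 381 detected miRs, quantile normalization over all murine miRs moved the value of miR-181c-5p by -1.26 and -0.99 on the log2 scale. On P16, with 324 detected miRs, it moved the value by 0.92. On the other 5 arrays the move was -0.29 to 0.15. The unadjusted p fell under 0.05 without P19 (difference 0.84) or without P20 (0.90), and the difference was 0.25 without P16.

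Scaling also moved the median of all tested miRs, from 0.15 after quantile normalization to -0.10 without normalization. Measured from that median, the difference of miR-181b-5p was 0.51 in both cases and that of miR-181a-5p was 0.03 and 0.06. The difference of miR-181d-5p from the median was 1.08 and 0.84. That of miR-181c-5p was 0.45 and 0.01. The position of miR-181a-5p and miR-181b-5p among the tested miRs was therefore almost the same on both scales. The positions of the dimmer miR-181d-5p and miR-181c-5p were not, and that of miR-181c-5p moved more.

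**Figure D2:**
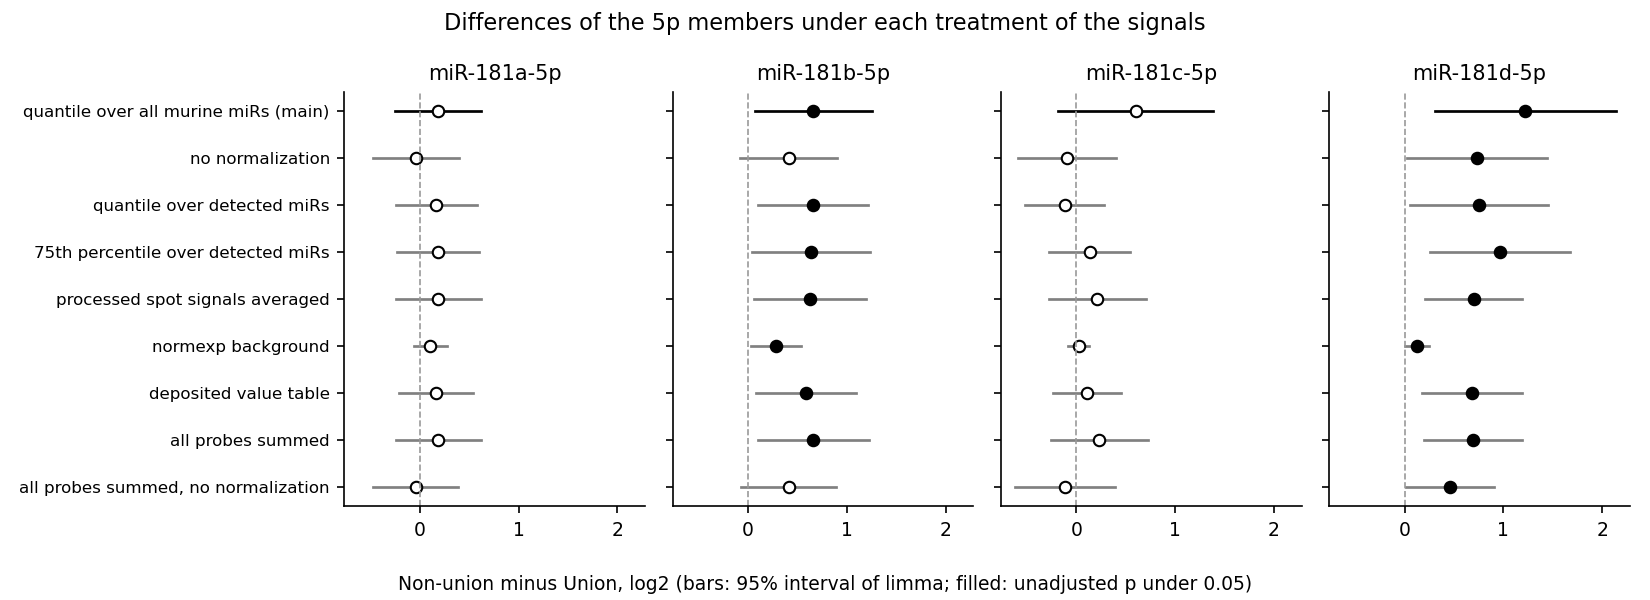
Differences of the 4 members (Non-union minus Union, log2, horizontal axis) with 95% limma intervals under 9 treatments of the signals, 1 per row, where a filled point has an unadjusted p under 0.05. The miR-181d-5p point is filled in every row between 0.12 and 1.22, miR-181b-5p lies between 0.28 and 0.66, and miR-181a-5p and miR-181c-5p lie on both sides of 0 across the rows.

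Each of the 4 members was measured by 2 probes, and the merged signal did not always hold both. Over the 2896 merged signals of detected murine miRs on the 8 arrays, 26.5% equalled the sum of only some of the miR's probes within 1%, and the rest equalled the sum of all of them. For miR-181a-5p and miR-181b-5p both probes were in the sum on every array. For miR-181c-5p only probe 1 was in it on every array. For miR-181d-5p the set changed between arrays. Both of its probes were summed on P14, P15 and P16 of the Non-union group and on P17 of the Union group, and only probe 2 was taken on P13 and on P18, P19 and P20. The 4 highest merged signals of miR-181d-5p were those with both probes.

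Taken one at a time, both probes of miR-181d-5p had a higher mean in the Non-union group. Without normalization the differences were below the 0.74 of the merged signal. After quantile normalization probe 1 alone gave 1.73 and probe 2 alone 0.90, beside 1.22 for the merged signal. Probe 1 gave 4.29, 6.04, 5.79 and 8.86 on the Non-union arrays and 6.57, 3.64, 3.16 and 3.56 on the Union arrays, and its log2 difference without normalization was 0.58. Probe 2 gave 10.4, 11.1, 11.6 and 9.51 on the Non-union arrays and 9.83, 7.29, 8.46 and 7.24 on the Union arrays, with a difference of 0.38. In both probes P17 was the only Union array within the Non-union range. With both probes summed on every array, the signals were 14.7, 17.2, 17.4 and 18.4 in the Non-union group and 16.4, 10.9, 11.6 and 10.8 in the Union group. The difference of this sum was 0.69 after quantile normalization (adjusted p = 0.239) and 0.46 without normalization (adjusted p = 0.434), with an unadjusted p under 0.05 in both and an FC below 2. Summing both probes left 0.23 of the miR-181c-5p difference after quantile normalization (adjusted p = 0.486). The 2 probes of miR-181b-5p gave 0.44 and 0.40 without normalization, and those of miR-181a-5p gave -0.02 and -0.05.

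**Figure D3:**
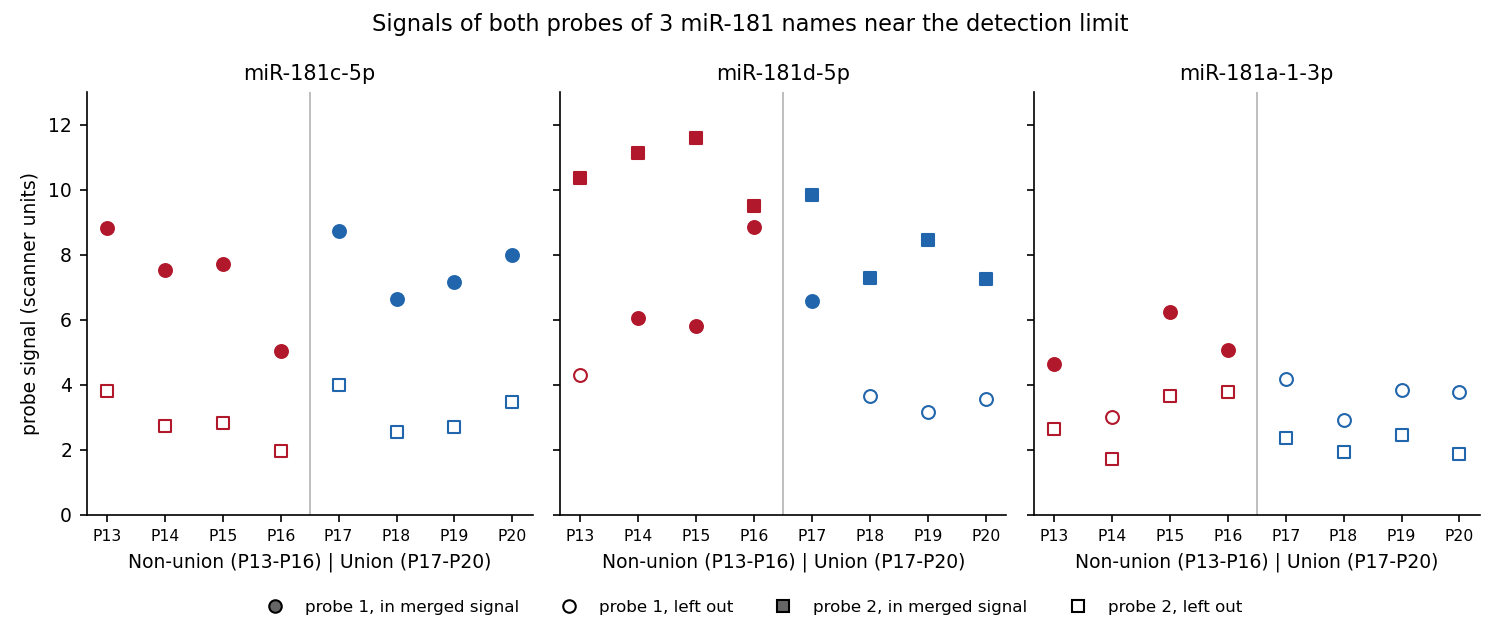
Signals of both probes (circles probe 1, squares probe 2) in scanner units on each array for miR-181c-5p, miR-181d-5p and miR-181a-1-3p, red for Non-union and blue for Union, where open symbols mark probe signals that the merged signal left out. For miR-181d-5p, probe 1 was left out on P13, P18, P19 and P20, and the signals of both probes are lowest on P18, P19 and P20.

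Whether members differed from each other was tested with the log2 ratio of 2 members on the same array. A factor common to a whole array does not move this ratio, but quantile normalization does, since it shifts dim and bright miRs by unequal amounts. The height of a ratio reflects the probes as well as the RNA, and only its difference between groups was compared. Over 6 pairs, none passed an adjusted exact permutation p of 0.05 in the main values, where the smallest adjusted p was 0.171. The differences were 0.48 for miR-181b-5p over miR-181a-5p (p = 0.0571, exact permutation test, interval -0.02 to 1.03) and 1.04 for miR-181d-5p over miR-181a-5p (p = 0.0571, exact permutation test, interval -0.48 to 2.18). The intervals hold the shifts that the exact test did not reject at 0.05. The difference of miR-181c-5p over miR-181a-5p was 0.42 (p = 0.229, exact permutation test), that of miR-181d-5p over miR-181b-5p was 0.56 (p = 0.171, exact permutation test), and that of miR-181c-5p over miR-181b-5p was -0.06 (p = 0.886, exact permutation test). Without normalization the differences were 0.78 for miR-181d-5p over miR-181a-5p and -0.05 for miR-181c-5p over miR-181a-5p.

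With both probes summed and no normalization, 2 of the 6 ratios separated the groups, and none passed adjustment over the 6 pairs. Both have miR-181a-5p as the denominator and are not independent of each other. How often ratios of other tested miRs separate the groups was not examined, so that this count has no share beside it. The ratio of miR-181b-5p to miR-181a-5p was 0.821, 0.795, 1.11 and 1.31 on the Non-union arrays and 0.746, 0.670, 0.767 and 0.702 on the Union arrays. All 4 Non-union values lay above all 4 Union values, with a log2 difference of 0.45 (interval 0.06 to 0.96) at the smallest p that the exact permutation test allows, 0.0286 (adjusted over 6 pairs 0.0857). The ratio of miR-181d-5p to miR-181a-5p was 0.228, 0.277, 0.311 and 0.362 on the Non-union arrays and 0.223, 0.207, 0.182 and 0.211 on the Union arrays. It did not overlap either, with a difference of 0.50 (interval 0.04 to 0.99, p = 0.0286 by the exact permutation test, adjusted 0.0857), although P13 and P17 lay close together. P17, which lay among the Non-union arrays in the signals of both miRs, was on the Union side in both ratios. Within the sequence pairs the differences were 0.05 for miR-181d-5p over miR-181b-5p (interval -0.15 to 0.55, p = 0.714 by the exact permutation test) and -0.07 for miR-181c-5p over miR-181a-5p (interval -0.69 to 0.34, p = 0.686 by the exact permutation test). These intervals still allow differences of the size seen between the pairs. For miR-181d-5p over miR-181c-5p, which share a locus, the difference was 0.58 (interval -0.15 to 1.47, p = 0.114 by the exact permutation test), and for miR-181c-5p over miR-181b-5p it was -0.53 (interval -1.59 to 0.25, p = 0.143 by the exact permutation test). The groups overlapped in both. Summing both probes was chosen after the merged signals had been seen.

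**Figure D4:**
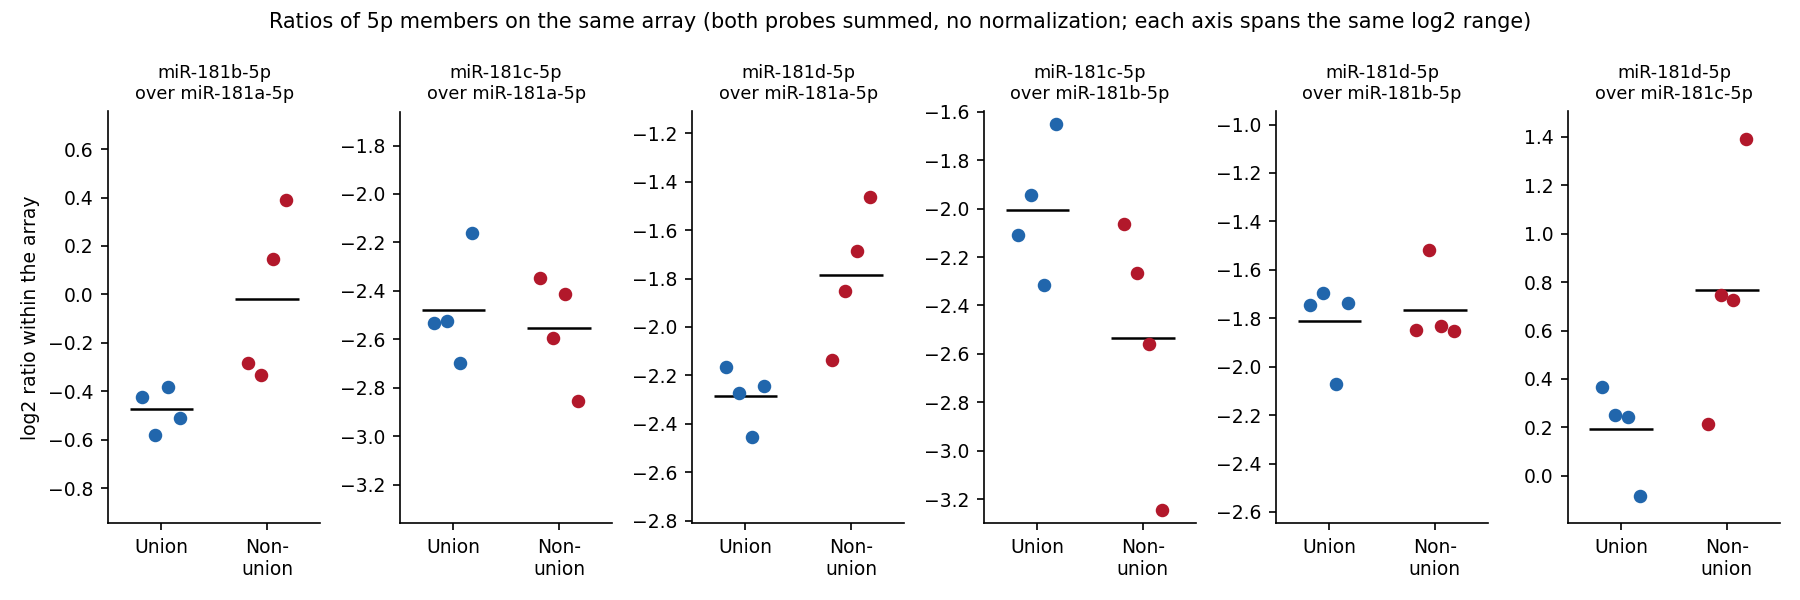
Log2 ratios of 2 members on the same array (both probes summed, no normalization), with 1 point per animal and the group mean as a line, where the vertical axes span the same log2 range. The groups separate for miR-181b-5p over miR-181a-5p and for miR-181d-5p over miR-181a-5p, with differences of 0.45 and 0.50, and overlap in the other 4 pairs.

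Across the 8 arrays of both groups, miR-181b-5p and miR-181d-5p varied together. With both probes summed and no normalization, r was 0.881 (exact permutation p = 0.00139, adjusted over 6 pairs 0.00834) and Spearman's rho was 0.905 (exact permutation p = 0.00456, adjusted 0.0274). Without P18 and P20, the arrays farthest from the median of miR-181b-5p, r was 0.671, and after subtraction of the group means it was 0.774. In the main values r was 0.867 (adjusted exact permutation p = 0.0197) and rho 0.81 (adjusted exact permutation p = 0.052), and r was 0.582 without P16 and P18. For miR-181a-5p and miR-181c-5p, r was 0.645 with summed probes (exact permutation p = 0.0776, adjusted 0.233), rho was 0.667 (exact permutation p = 0.0831), and r was 0.232 without P16 and P17. In the main values it was 0.845 (adjusted exact permutation p = 0.0197), with rho 0.783 (adjusted exact permutation p = 0.052) and r 0.663 without P16 and P18. Of the pairs that share a locus, miR-181a-5p and miR-181b-5p had an r of 0.252 with summed probes (exact permutation p = 0.534, rho 0.048), which was 0.625 without P16 and P17, above the 0.232 of miR-181a-5p and miR-181c-5p without the same arrays. In the main values it was 0.767 (adjusted exact permutation p = 0.0512, rho 0.687) and 0.358 without P16 and P18. For miR-181c-5p and miR-181d-5p, r was -0.162 with summed probes (exact permutation p = 0.732, rho -0.19) and 0.226 without P16 and P17. In the main values it was 0.537 (adjusted exact permutation p = 0.176, rho 0.548) and 0.069 without P17 and P18. The order of the pairs thus depended on the arrays included and on the scaling. The differences between these correlations were not tested, and the arrays share labelling, depth of signal and, within the sequence pairs, most of the bases that a probe can bind. All these permutations ran over the 8 arrays regardless of group, so that a group difference of both miRs enters the p. The r after subtraction of the group means was not tested.

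**Figure D5:**
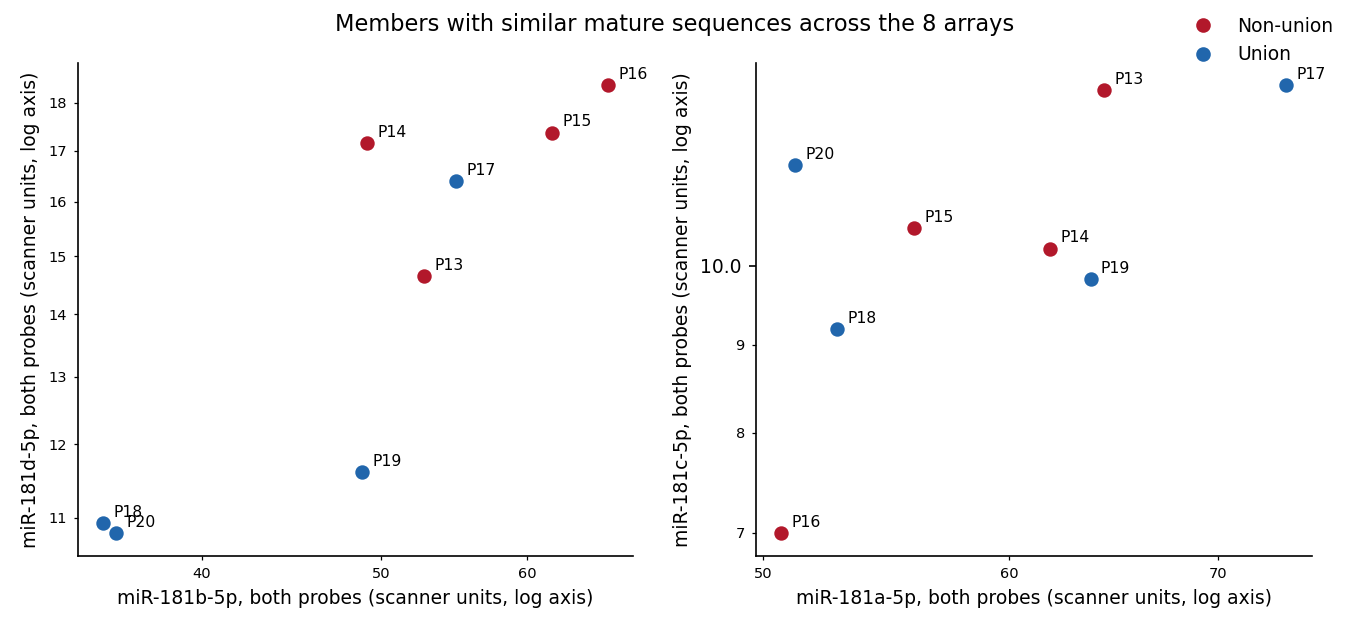
Signals of both probes summed, in scanner units on log axes, for miR-181d-5p against miR-181b-5p and for miR-181c-5p against miR-181a-5p, with 1 point per animal. The points of miR-181b-5p and miR-181d-5p rise together (r = 0.881, n = 8), with P18 and P20 lowest in both, and those of miR-181a-5p and miR-181c-5p scatter more (r = 0.645, n = 8).

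Among the partner arms, miR-181a-1-3p from the locus on chromosome 1 was the only one detected. It is printed beside the 3p arms that resemble it most, with the seed in capitals, because the arm tells the loci apart.
miR-181a-1-3p: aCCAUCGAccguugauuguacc
miR-181c-3p: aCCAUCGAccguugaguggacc
miR-181a-2-3p: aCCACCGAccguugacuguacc
From miR-181a-1-3p, miR-181c-3p differed by U16G and U19G with the same seed, and miR-181a-2-3p by U5C and U16C. The hairpin of Mir181a-1 carries both arms, here in capitals, with the 5p arm on the left.
Mir181a-1: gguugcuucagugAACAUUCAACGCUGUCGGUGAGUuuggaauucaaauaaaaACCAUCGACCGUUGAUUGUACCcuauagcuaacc
The arm miR-181a-1-3p was detected at 4.62, 6.24 and 5.06 units on P13, P15 and P16 of the Non-union group and not on P14, and on none of the 4 Union arrays. Detection on 3 of 4 against 0 of 4 arrays gave p = 0.143 in a two-sided Fisher's exact test. The signals lay near the limit of detection. Probe 1, on which each merged signal rested, gave 4.62, 3.00, 6.24 and 5.06 on the Non-union arrays and 4.18, 2.90, 3.83 and 3.78 on the Union arrays. P13, P15 and P16 thus exceeded the highest Union array, P17, in the probe signal as well, and the log2 difference of both probes summed was 0.35 (p = 0.229, exact permutation test). The arms miR-181a-2-3p, miR-181b-1-3p, miR-181b-2-3p, miR-181c-3p and miR-181d-3p were not detected on any array, with at most 1 spot well above background, and have no level here.

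The callus is a mixture of cells, so that fewer cells of a type and less of a miR per cell cannot be told apart. All 4 cartilage markers (miR-140-5p, miR-140-3p, miR-455-5p and miR-455-3p) were detected on all arrays. They were higher in the Non-union group at an unadjusted limma p under 0.05, with a median difference of 1.43. Their adjusted limma p was 0.288 to 0.313. Over all 310 tested miRs 9.68% were higher and 4.19% lower at this unadjusted threshold. The summed signal of the cartilage markers was 934 to 3521 units in the Non-union and 484 to 996 units in the Union group. Of the skeletal muscle markers 4 of 6 were tested and none passed in either direction, with summed signals of 14855 to 62359 units in the Non-union and 36945 to 95817 units in the Union group. Of the myeloid and leukocyte markers 3 of 4 were tested, of which 1, miR-223-3p, was lower in the Non-union group at an unadjusted limma p under 0.05 (-1.13, adjusted p = 0.346). Their summed signal was 3534 to 4985 units in the Non-union and 5376 to 20398 units in the Union group. The lymphocyte markers miR-150-5p and miR-342-3p had differences of 0.49 and 0.17 and neither passed. The red blood cell markers (3 tested) and the endothelial markers (2 tested) had no call in either direction. The part of these cell types in the differences of miR-181b-5p and miR-181d-5p was not tested.

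The miRs most like each member across the 8 arrays were ranked by Pearson's r in the main values, among 306 other tested miRs, as a description. For miR-181b-5p they were miR-199a-3p (r = 0.975), the cartilage miR miR-140-3p (0.971) and miR-31-5p (0.965), and without normalization these r were 0.809, 0.825 and 0.909. Their own differences were 1.01, 1.42 and 1.52. A positive sign follows from their choice by r across the arrays of both groups and is not a separate result. For miR-181d-5p the nearest miRs were miR-132-3p (0.894), miR-374c-5p (0.866) and miR-31-3p (0.862), with 0.796, 0.666 and 0.690 without normalization. For miR-181a-5p they were miR-93-5p (0.917), miR-676-3p (0.913) and miR-467f (0.905). For miR-181c-5p they were miR-324-3p (0.99), miR-28-5p (0.983) and miR-34b-5p (0.979), of which miR-34b-5p fell to 0.03 without normalization. All r share the 8 arrays and their scaling.

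The Mir23a cluster, which gives miR-23a, miR-27a and miR-24-2, lies 29556 bases from Mir181c on chromosome 8, on the opposite strand. Of its 6 arms on the array 4 were tested, and 1 passed an unadjusted limma p of 0.05, miR-24-2-5p (difference 0.41, SE 0.17, adjusted p = 0.322). The others had differences of 0.24 for miR-23a-3p, 0.32 for miR-27a-3p and 0.27 for miR-24-3p, which also comes from a further locus. The median difference of the 4 tested arms was 0.30, beside 0.15 over all tested miRs. Over all 310 tested miRs 9.68% were higher at an unadjusted limma p under 0.05.

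Of 13 miRs known from osteoblasts or chondrocytes 11 were tested, with a median difference of 0.33, beside 0.15 over all tested miRs. At an unadjusted limma p under 0.05, 4 were higher (adjusted p 0.288 to 0.313) and none was lower. The shares over all 310 tested miRs were 9.68% higher and 4.19% lower. The 4 were the cartilage markers above, with differences of 1.46 for miR-140-5p, 1.42 for miR-140-3p, 1.44 for miR-455-5p and 1.28 for miR-455-3p. The miR-29 members, which target collagen transcripts, had differences of -0.11, -0.14 and -0.69 for miR-29a-3p, miR-29b-3p and miR-29c-3p without a call. Of 7 miRs of blood cells all were tested, with 1 lower, miR-223-3p, beside 4.19% lower over all tested miRs. The median difference of the blood cell list was -0.38, beside 0.15 over all tested miRs. The largest positive value in that list was 0.49, for miR-150-5p. Without a call were also miR-155-5p at -0.16 and miR-146a-5p at -0.60, miRs of activated immune cells.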

How the data were processed

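Total RNA from callus of 8 mice, 100 ng each, was labelled with Cy3 and hybridized to the 8 arrays of 1 slide. Scanner output of Agilent Feature Extraction 10.10.1.1, as deposited by the authors, holds background-corrected spot intensity values on a linear scale and, for every miR, a signal that merges its 40 spots, an error and a detection call. A second deposited file gives log2 values, and each of its columns had a median of 2.49 and correlated with the log2 merged signals at 0.995 to 0.997 over the tested miRs. The study's methods name a log2 transformation and quantile normalization in R with preprocessCore. The table served as an alternative.

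The same steps were applied here to the software's merged signals of 1079 murine miRs, where undetected miRs stood at the software's floor of 0.1. In the deposited table undetected miRs have no common floor, so that its input was not this merged signal, and the difference of miR-181d-5p there was 0.68, beside 1.22 here. The 310 miRs detected on all arrays were tested with lmFit and eBayes (limma 3.58.1, R 4.3.3), two-sided, with Benjamini-Hochberg adjustment. The threshold of the study, an unadjusted p of 0.05 or an FC of 2, was kept beside the adjusted p. Single values were tested by exact permutation of the arrays (Python 3.11.15, numpy 2.4.6, pandas 2.3.3, scipy 1.17.1), and figures were drawn with matplotlib 3.10.9. The fit was tested on simulated data. The number of arrays limits the precision. The p-values rest on 4 animals per group, and those of limma also draw on the spread of the other tested miRs.

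Groups came from the sample labels. The family, the lists, the cell type markers and the tests were chosen with earlier results of these data known. Named miRs were all miR-181 names, all members of these lists and, for each tested member, the 3 miRs of highest r. The marker miR-486-5p was not analysed here. The alternatives were other scalings, background correction, filters, the deposited log2 table, Welch's test, each probe alone, each array left out and, added after the data were seen, all probes summed. Sequences and their positions are RefSeq's (GRCm38.p6), and the array's own annotation names mm9.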

Additional observations from a re-analysis of the deposited data

How the results depend on the processing

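Without normalization the difference was -0.043 for miR-181a-5p, 0.41 for miR-181b-5p and -0.09 for miR-181c-5p, and 1 member had an unadjusted limma p under 0.05. With quantiles over the detected miRs miR-181c-5p stood at -0.12. With all probes summed and no normalization the values were -0.043 for miR-181a-5p, 0.41 for miR-181b-5p and -0.12 for miR-181c-5p, and 1 member had an unadjusted p under 0.05. Probe 2 of miR-181c-5p alone gave 1.79 after quantile normalization and -0.18 without it. The number of members with an FC of 2 or more was 0 without normalization, with quantiles over the detected miRs, with either 75th percentile scaling, with averaged processed spots, with normexp, with the deposited log2 table and with both settings of summed probes. The difference of miR-181d-5p was positive under all 22 alternatives (0.12 to 1.73), as was that of miR-181b-5p (0.28 to 0.80). The other filters and Welch's test kept the main values, so that the difference could not change there. The remaining alternatives shared most arrays or signals with the main values and were not independent checks. The adjusted p (limma or Welch) was 0.0751 to 0.619 for miR-181b-5p and 0.0826 to 0.619 for miR-181d-5p. The lowest differences, 0.28 for miR-181b-5p and 0.12 for miR-181d-5p, came with normexp, which was run with an offset of 50. The lowest adjusted p of both came without P19. The part of the normexp offset in the low differences was not tested.

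For the ratio of miR-181b-5p to miR-181a-5p the difference was 0.45 without normalization, at an exact permutation p of 0.0286. Either 75th percentile scaling, and all probes summed without normalization, gave the same values by construction. A factor common to an array cancels in the ratio, and both probes of these miRs were already in the merged signal. The difference for miR-181d-5p to miR-181a-5p reached an exact permutation p of 0.0286 with all probes summed and no normalization (0.50). The ratio of miR-181c-5p to miR-181a-5p turned to -0.047 without normalization, and by the same cancelling with either 75th percentile scaling. It was -0.29 with quantiles over the detected miRs, -0.082 with normexp, -0.056 with the deposited table and -0.074 with all probes summed and no normalization. That of miR-181d-5p to miR-181b-5p turned to -0.16 with normexp. The causes of these changes of sign were not tested.

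Leaving out 1 array at a time gave 0.07 to 0.26 for miR-181a-5p, 0.50 to 0.80 for miR-181b-5p, 0.25 to 0.90 for miR-181c-5p and 0.83 to 1.52 for miR-181d-5p, with 1 to 3 members at an unadjusted p under 0.05 and 0 to 1 with an FC of 2 or more. The ratio differences were 0.36 to 0.59 for miR-181b-5p to miR-181a-5p, 0.11 to 0.68 for miR-181c-5p to miR-181a-5p, 0.69 to 1.34 for miR-181d-5p to miR-181a-5p, -0.25 to 0.26 for miR-181c-5p to miR-181b-5p (0.04 without P19 and 0.26 without P20), 0.33 to 0.85 for miR-181d-5p to miR-181b-5p and 0.34 to 1.07 for miR-181d-5p to miR-181c-5p. No paired analysis was possible because the specimen numbers are not shared between the groups. Signals of miR-181c-5p and miR-181a-1-3p lie near the detection limit, so that a difference could be measured only coarsely there. The same limit holds for miR-181d-5p in the Union group. Its merged signals on P18, P19 and P20 (7.29, 8.46 and 7.24) lay within the range of miR-181c-5p, 5.04 to 8.83.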
